A study of Homo sapiens with 10 samples.

Results

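The compact dense regions are 817 short stretches of H3K9me3-marked chromatin in human fibroblasts depleted of ERH. They were chosen from 1 list of 10536 regions by measured values: a length below 5000 bp and an authors' score of 10 to 20 units per base pair of region, called density here. Only regions on chromosomes 1 to 22 with a piece number of 1 in the list, called unsplit here, were used. They made up 10.3% of the 7928 such regions below 5000 bp, and the other 7111, of which 7067 had a lower and 44 a higher density, served as the comparison.

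The study used BJ, an established line of human foreskin fibroblasts, and CUT&RUN, in which a nuclease fusion held by an antibody releases the DNA around the bound site for sequencing. H3K9me3 was profiled in 3 siControl and 3 siERH samples without reprogramming factors, after 2 rounds of siRNA at 5 nM given 3 days apart. SOX2 was profiled in 2 siControl and 2 siERH samples 48 h after Sendai virus infection with OCT4, SOX2, KLF4 and c-MYC. The list analysed here is 1 merged list that the labels attach to the 3 siERH H3K9me3 samples. It holds no value per sample, and no control list was analysed here, so nothing below measures an effect of the knockdown or a spread between replicates.

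H3K9me3, the trimethylation of lysine 9 on histone H3, marks heterochromatin and is laid down by SUV39H and SETDB1 family methyltransferases. HP1 proteins bind it. In human cells it is known for covering pericentromeric repeats, transposable elements and the 3′ parts of many KRAB zinc finger genes, and ERH is a small conserved protein tied to its maintenance. Genes in H3K9me3 domains are usually silent in the cell type at hand. The type of cell could not be checked against marker expression, because the list holds no expression values.

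No compact dense region held the start of a protein-coding gene, but 4 held the start of a long non-coding RNA (lncRNA) gene. Counting both gene types, a start lay in 4 of the 817 (0.490%) and in 39 of the 7111 other short regions (0.548%), so the shares were near each other. These 4 starts are shown because they are the places where a promoter sequence lay wholly inside one of the regions, and they were picked after their values had been seen. Each line gives 250 bases before to 50 bases after the start on the gene's strand, from RefSeq GRCh38.p14, with CpG dinucleotides in capitals. The windows lie at chr1:19295687-19295986 (minus strand), chr2:43175526-43175825 (minus), chr3:191155903-191156202 (plus) and chr19:50044640-50044939 (minus), in the order printed.
LOC100506730: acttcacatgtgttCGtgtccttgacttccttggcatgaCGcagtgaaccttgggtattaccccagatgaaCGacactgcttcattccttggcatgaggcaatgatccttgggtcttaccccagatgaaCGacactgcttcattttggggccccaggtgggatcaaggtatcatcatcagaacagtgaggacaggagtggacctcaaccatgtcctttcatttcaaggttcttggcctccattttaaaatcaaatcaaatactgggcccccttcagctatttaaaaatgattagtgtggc
LOC124907755: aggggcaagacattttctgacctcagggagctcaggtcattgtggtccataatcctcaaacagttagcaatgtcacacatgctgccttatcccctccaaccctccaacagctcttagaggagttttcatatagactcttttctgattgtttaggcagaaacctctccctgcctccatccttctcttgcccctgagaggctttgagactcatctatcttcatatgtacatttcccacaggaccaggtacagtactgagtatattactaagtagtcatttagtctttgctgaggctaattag
LOC107986171: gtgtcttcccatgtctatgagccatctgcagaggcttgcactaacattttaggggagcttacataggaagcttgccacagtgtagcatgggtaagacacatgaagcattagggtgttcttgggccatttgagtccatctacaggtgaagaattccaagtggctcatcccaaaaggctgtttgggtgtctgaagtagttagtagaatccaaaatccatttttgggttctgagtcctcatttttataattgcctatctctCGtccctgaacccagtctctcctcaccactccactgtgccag
ZNF473-AS1: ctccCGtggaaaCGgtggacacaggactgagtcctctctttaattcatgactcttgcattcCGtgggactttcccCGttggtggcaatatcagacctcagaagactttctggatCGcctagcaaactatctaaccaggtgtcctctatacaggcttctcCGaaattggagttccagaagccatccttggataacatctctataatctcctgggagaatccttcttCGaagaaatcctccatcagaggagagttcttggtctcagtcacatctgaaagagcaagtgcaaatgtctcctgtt
The 4 windows held 4, 0, 1 and 7 CpG dinucleotides in that order. Their GC content was 44.7 to 47.0%, with a median of 46.5%, and their median ratio of observed to expected CpG was 0.154. The same medians over the 33725 autosomal starts in the table were 58.7% and 0.581. That table mixes protein-coding and lncRNA genes, whereas all 4 windows are lncRNA starts, so gene type was not held equal in this contrast. The 41 starts inside the other short regions resembled the 4, with a median GC content of 45.0% and a CpG ratio of 0.153, so low CpG content was shared by the starts in both kinds of short region. The motif TATAAA, searched on both strands, was in 1 of the 4 windows (LOC107986171), in 12 of the 41 (29.3%) and in 11.6% of all windows. The host regions were chr1:19293791-19296211 (density 11.72), chr2:43173383-43176685 (11.67), chr3:191152780-191157237 (12.58) and chr19:50043466-50047795 (14.57). The last of these also lies in ZNF473, a zinc finger gene whose product takes part in histone pre-mRNA processing.

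Of all 7928 short regions, 2 overlapped a microRNA gene, and both were compact dense regions. Their mature microRNAs are printed to show what the regions contain, from RefSeq, with the seed (bases 2 to 8) in capitals.
hsa-miR-2115-5p: aGCUUCCAugacuccugaugga
hsa-miR-2115-3p: cAUCAGAAuucauggaggcuag
hsa-miR-6760-5p: cAGGGAGAagguggaagugcaga
hsa-miR-6760-3p: aCACUGUCcccuucuccccag
The 4 seeds differed from each other. MIR2115 (chr3:48316360-48316459, minus strand) lay in a region with a score of 47812 and a density of 11.57 that also overlapped SPINK8, a gene of the Kazal-type serine protease inhibitor family. MIR6760 (chr12:111304142-111304209, plus strand) lay in a region with a score of 50930 and a density of 11.17 inside CUX2, which encodes a homeobox transcription factor. With 2 regions against 0 of 7111, the shares were 0.245% (95% Wilson interval 0.0672 to 0.888%) and at most 0.0422% for 3 counts. Wilson intervals here cover the counting of regions only.

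Length and score chose the regions, so their values are a description. Lengths ran from 729 to 4998 bp with a median of 3309 bp, and scores from 12942 to 95263 with a median of 38152. The other short regions had a median length of 3130 bp and a median score of 20048. The densities crowded at the lower limit: the median was 11.2, 558 of the 817 (68.3%) were below 12, and 39 (4.77%) were at 15 or more. The compact dense regions thus form the upper edge of one continuous cloud of short regions in the plot of score against length, whereas the 44 regions of higher density scatter above it. They covered 2687 kb, or 10.5% of the length of all short regions, and held 15.8% of their summed score.

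**Figure D1:**
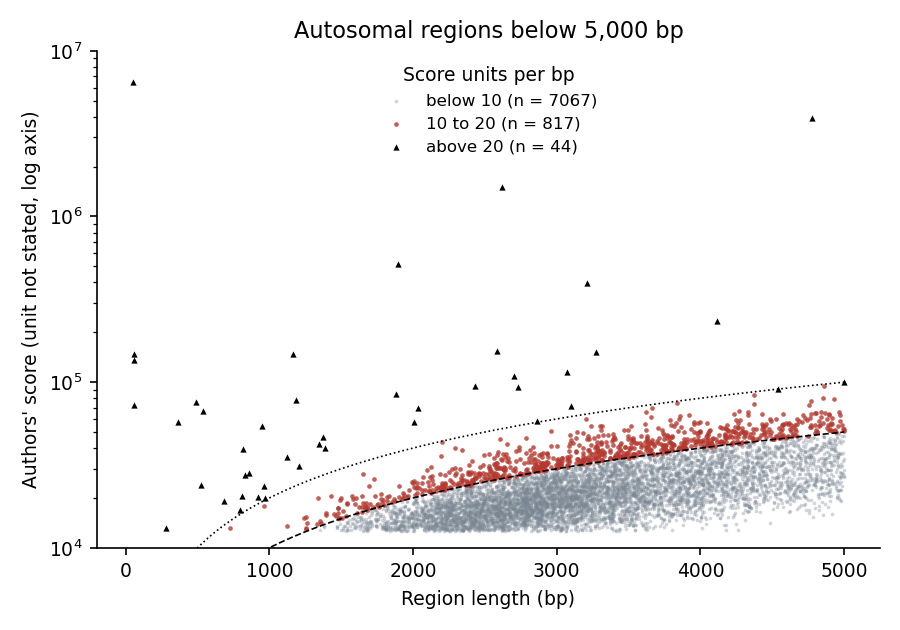
Authors' score (log axis, unit not stated) against length in bp for the 7928 autosomal regions below 5000 bp; each point is 1 region, the dashed line is a density of 10 and the dotted line a density of 20. The 817 compact dense regions (red) lie directly above the 7067 regions of lower density (grey), while the 44 regions above 20 (triangles) are mostly shorter.

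The lowest score anywhere in the list was 12640, so a region shorter than 1264 bp could not fall under a density of 10. Only 7 of the 817 (0.857%) were that short. The shortest, chr5:17595844-17596572, had 729 bp and a density of 18.05, and the shortest one in an annotated gene, chr22:47637467-47638588, had 1122 bp and lay in the lncRNA gene EPIC1. At the other end, chr3:195605115-195610112 had 4998 bp and a density of 10.11. Just outside the length limit lay chr19:52304504-52309503 with 5000 bp, in the zinc finger gene ZNF480, at 10.65. At the lower density limit, chr7:17698672-17702173 was inside at 10.00 and chr22:27969301-27971719, in the lncRNA gene TTC28-AS1, was outside at the same rounded value. At the upper limit, chr7:61071607-61073807 was inside at 19.70 and chr9:61669777-61674775 outside at 20.05.

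Compact dense regions lay in gene-richer surroundings than the other short regions without lying in genes more often. A protein-coding gene body overlapped 262 of the 817 (32.1%, 29.0 to 35.3%), and 31.7% of the others (2254 of 7111, 30.6 to 32.8%). Any annotated gene overlapped 415 (50.8%) against 3551 (49.9%), a lncRNA gene 165 (20.2%) against 1336 (18.8%), and a pseudogene 17 (2.08%) against 151 (2.12%). These shares are near each other, and none was tested, since regions of 1 list are not replicates.

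The number of protein-coding genes whose body reached within 500 kb of a region's midpoint separated the classes more. This measure was chosen after the data had been seen. Its median was 7 genes for compact dense regions (interquartile range 3 to 12) and 4 for the others (2 to 8). Counting genes of every type, the medians were 22 and 16. On each of the 22 chromosomes the mean gene count was higher for the compact dense regions, from a near tie on chromosome 7 (6.34 against 6.32) to 16.9 against 9.81 on chromosome 16.

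The share of short regions that were compact and dense rose in every step of local gene count. With no protein-coding gene in the window it was 5.43% (46 of 847, 4.1 to 7.17%), with 1 to 2 genes 6.61% (117 of 1770), and with 3 to 5 genes 9.46% (181 of 1913). It was 12.1% with 6 to 10 genes (228 of 1883) and 15.5% with 11 to 20 (152 of 983). With 21 or more genes it reached 17.5% (93 of 532, 14.5 to 20.9%). The outermost intervals do not overlap, whereas those of most neighbouring steps do. Grouped, regions with at least 11 genes around them gave 16.2% (245 of 1515) and regions with at most 2 genes 6.23% (163 of 2617), a difference of 9.94 percentage points (7.92 to 12.1).

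**Figure D2:**
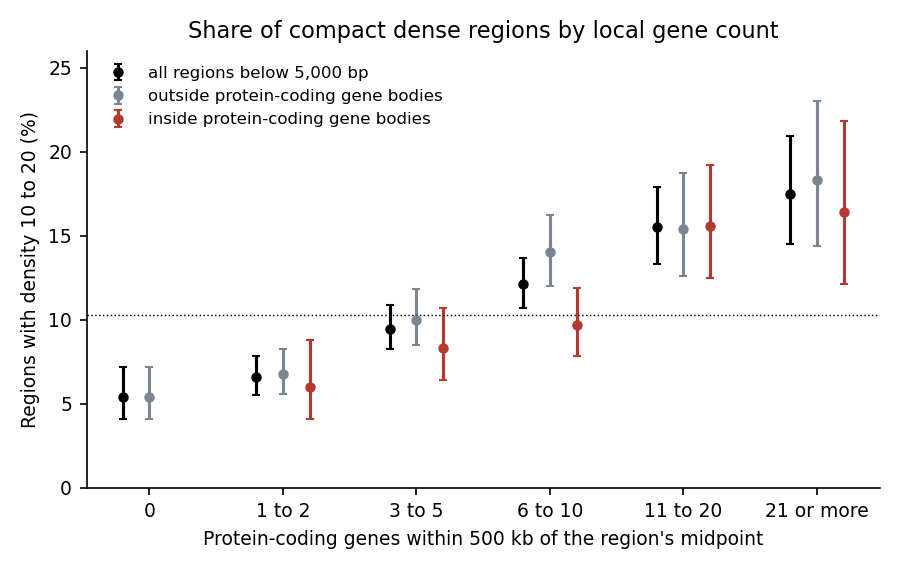
Share of regions below 5000 bp that have a density of 10 to 20 (%) by the number of protein-coding genes within 500 kb, for all short regions (black), those outside (grey) and those inside (red) protein-coding gene bodies; bars are 95% Wilson intervals over regions and the dotted line is the share over all, 10.3%. The black points climb from 5.43% to 17.5%; grey and red points both climb, and at 6 to 10 genes grey (14%) lies above red (9.69%).

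The gradient was present on both sides of the gene boundary. Outside gene bodies the share went from 5.43% with no gene through 10.0% with 3 to 5 to 18.3% with 21 or more. Inside gene bodies it went from 6.02% with 1 to 2 genes through 8.31% to 16.4%. At 6 to 10 genes the share was higher outside (14%, 149 of 1068, 12 to 16.2%) than inside gene bodies (9.69%, 79 of 815, 7.85 to 11.9%), and these intervals do not overlap. Regions outside protein-coding genes were also closer to the nearest such gene when compact and dense, at a median of 50.2 kb (n = 555) against 108 kb (n = 4857). Because gene bodies are more frequent in gene-rich surroundings, the gene body shares were also set side by side at like gene counts. Weighted to the gene counts of the compact dense regions, 36.4% of the other regions overlapped a gene body, so the difference (compact dense minus other) was -4.34 percentage points. The largest gap was at 6 to 10 genes, where 34.6% of compact dense regions (79 of 228, 28.8 to 41.0%) and 44.5% of the others (736 of 1655, 42.1 to 46.9%) lay in a gene body. At 11 to 20 genes the shares were 46.1% and 45.7%.

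The gradient was also present among regions of like length. In 7 bins of 500 bp with at least 20 gene-rich and 20 gene-poor regions, the gene-rich share was higher in 6. The widest was the bin that starts at 4000 bp, with 22.8% (38 of 167) against 7.85% (27 of 344). The exception was the shortest of the 7, with 10.7% against 13.9%. With the 2 groups weighted to the same lengths the difference was 9.41 percentage points.

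Chromosomes differed in the same sense. Chromosome 17 had the highest share of compact dense regions among its short regions, 18.6% (34 of 183, 13.6 to 24.8%), followed by chromosome 19 with 15.3% (35 of 229) and chromosome 10 with 13.2% (53 of 401). Chromosome 15 had the lowest, 6.28% (14 of 223, 3.78 to 10.3%), then chromosome 14 with 6.87% and chromosome 5 with 7.68%. Most neighbours in this order have overlapping intervals. Over the 22 chromosomes the share went with the number of protein-coding genes per Mb at a Pearson r of 0.68 and a Spearman rho of 0.64, given as a description because the chromosomes share 1 list. Without chromosomes 17 and 19, the richest in genes, r was 0.53 and rho 0.52 (n = 20). Those 2 chromosomes held 69 of the 817 regions, and without them the gene-rich minus gene-poor difference was 9.57 percentage points.

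**Figure D3:**
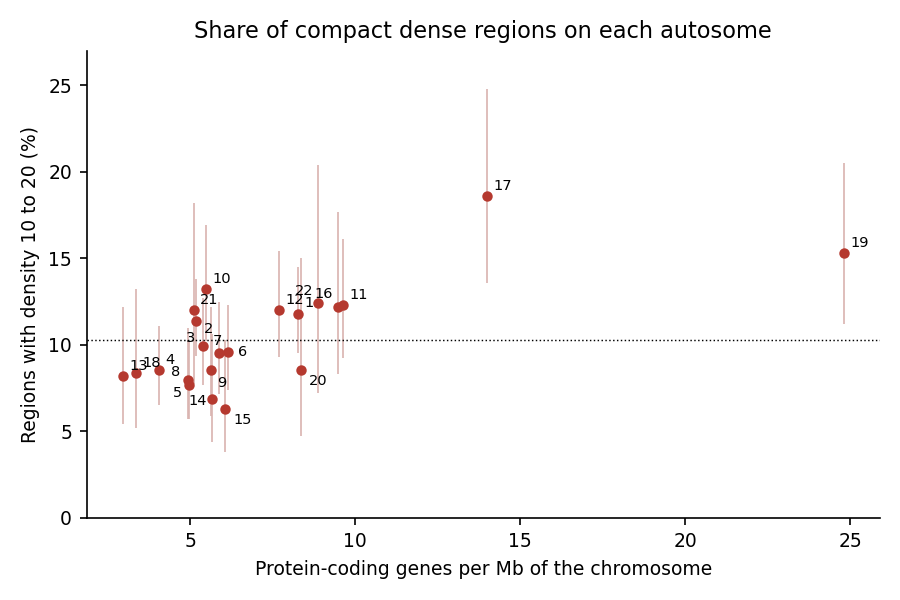
Share of regions below 5000 bp with a density of 10 to 20 (%) on each autosome against protein-coding genes per Mb; each point is 1 chromosome with its number, bars are 95% Wilson intervals over regions and the dotted line is 10.3%. Chromosomes 17 (18.6%) and 19 (15.3%) stand at the gene-rich right, and the other chromosomes lie between 6.28% and 13.2%.

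A different setting held some of the densest regions: the flanks of the longest stretch without any annotated gene on each chromosome, used as a stand-in for the centromere or a short arm. Within 5 Mb of such a stretch lay 57 of the 817 (6.98%, 5.42 to 8.93%) and 421 of the other short regions (5.92%, 5.40 to 6.49%). The difference of 1.06 percentage points depended on the limits: it was 6.94 at a density of 12 to 20, -0.791 at 9 to 20 and -0.516 for regions at least 10 kb from any other. Within 2 Mb of the stretch the shares were 4.16% and 2.49%, a difference of 1.67 (0.441 to 3.31). Within the 817, this share was 3.71% at a density of 10 to 11 (13 of 350) and 5.29% at 11 to 12 (11 of 208). It was 10.0% at 12 to 15 (22 of 220) and 28.2% at 15 to 20 (11 of 39, 16.5 to 43.8%). Above a density of 20 it was 52.3% (23 of 44, 37.9 to 66.2%). These density classes were set after the data had been seen. The 57 regions lay on 17 chromosomes, led by chromosomes 10 and 17 with 8 each. Inside the stretch itself were 11 of the 817 and 25 of the 7111 other short regions.

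The local gene count did not fall along the same classes. Its median was 6, 7, 7 and 9 genes from the lowest to the highest density class, and 15 of the 39 regions at 15 to 20 (38.5%) had at least 11 genes around them. The highest densities thus occurred in both settings. The highest score, 95263, belonged to chr17:22721678-22726534 at a density of 19.61, inside the gene-free stretch of chromosome 17 with no protein-coding gene within 500 kb. Next came chr11:50708697-50713071, with a score of 83157 and a density of 19.01, also with no such gene. By contrast chr3:47357137-47360970, at a density of 19.63, had 15 protein-coding genes within 500 kb and no other region of the list within 514 kb. The third highest score, 79836 at chr10:71944226-71949075, had 11 genes around it and its nearest region at 591 kb.

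Distances to chromosome ends and to long domains were alike in both classes. Within 5 Mb of a chromosome end lay 77 of the 817 (9.42%, 7.61 to 11.6%) and 617 of the others (8.68%, 8.04 to 9.35%). The nearest region of 10 kb or longer was at a median of 6.51 Mb and 6.10 Mb, respectively. The nearest region of any length was at a median of 55 kb (47.3 to 62.1) and 61.4 kb (59.1 to 64.5), and another region lay within 10 kb for 155 (19%, 16.4 to 21.8%) and 1148 (16.1%, 15.3 to 17%).

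The nearest other short region was itself compact and dense for 118 of the 817 (14.4%, 12.2 to 17%) and for 709 of the others (9.97%, 9.30 to 10.7%). Among regions below 3000 bp this difference of 4.47 percentage points was 1.40, with an interval that includes 0 (-1.75 to 5.42). The contrast was widest at gaps up to 2 kb, with 7 of 22 (31.8%, 16.4 to 52.7%) against 15 of 191 (7.85%, 4.82 to 12.6%). It was 17.1% against 10.8% at 10 to 50 kb and 10.6% against 8.86% beyond 200 kb. At a density of 10 to 11 the share among compact dense regions was 9.71% (34 of 350), near the 9.97% of the others. It was 15.4% at 11 to 12, 19.1% at 12 to 15 and 25.6% at 15 to 20 (10 of 39). Above a density of 20, outside the compact dense class, it was 27.3% (12 of 44), so a high share was not particular to that class. Mutual nearest neighbours are counted from both sides, so these counts are not independent. The direction was not the same at every gene count. With 1 to 2 genes within 500 kb the shares were 17.1% (20 of 117) and 5.69% (94 of 1653). With 3 to 5 genes they were 8.29% and 9.30%, and with 6 to 10 genes 11.8% (27 of 228) and 12.9% (214 of 1655). The others were thus higher in both, but the intervals overlap (5.09 to 13.2% and 8.02 to 10.8%, then 8.27 to 16.7% and 11.4 to 14.6%). At the remaining gene counts the compact dense regions were higher. The shares were 15.2% and 5.49% with no gene, 19.7% and 14.3% with 11 to 20, and 20.4% and 17.5% with 21 or more. Weighted to like gene counts, the difference was 2.99 percentage points in place of 4.47.

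**Figure D4:**
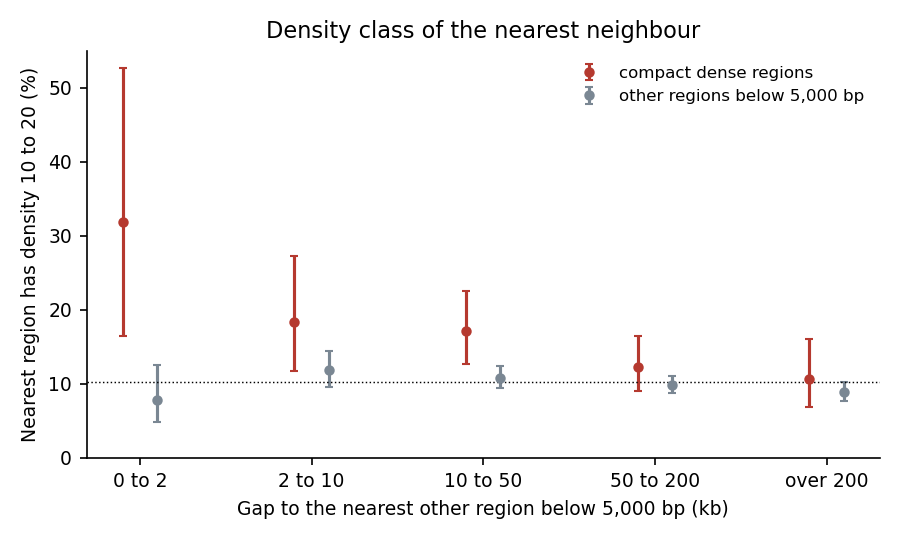
Share of regions whose nearest other region below 5000 bp has a density of 10 to 20 (%), by the gap to it in kb, for compact dense regions (red) and other short regions (grey); bars are 95% Wilson intervals over regions and the dotted line is 10.3%. Red exceeds grey most at gaps up to 2 kb (31.8% and 7.85%), and the points come together beyond 200 kb (10.6% and 8.86%).

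Most compact dense regions stood alone. Joined where they lay within 100 kb of each other, they gave 702 single regions, 51 pairs, 3 groups of 3 and 1 group of 4. The group of 4 spanned 119.8 kb at chr6:17068022-17187831 and held 4 of the 5 regions listed there. Its first region overlapped the lncRNA gene LOC124901269, and no region of the group overlapped a protein-coding gene, although STMND1, a stathmin domain gene, reaches into the span between them. The 4 densities in the group were 10.65, 11.81, 12.62 and 11.46, all in the lower part of the range. The group at chr4:49196641-49296937, beside the gene-free stretch of chromosome 4, held 3 of the 6 regions listed there, with densities of 14.16, 18.76 and 14.35. The group at chr12:93863843-94019794, with its first region in CRADD, a death-domain adaptor gene, held 3 of 7 listed regions. Its densities were 10.77, 10.39 and 14.13. At chr4:98723257-98817316 all 3 listed regions were compact and dense, at 10.75, 10.23 and 10.67.

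The 262 regions in protein-coding genes fell in 253 genes, 239 of them with 1 region, 13 with 2 and 1 with 3. For 115 of the 253 another short region lay in the same gene. The gene with 3 was AKAP19 on chromosome 2 (density 11.14, 13.99 and 10.23), of which the regions covered 3.16% of 324 kb. HIF3A, which encodes an alpha subunit of hypoxia-inducible factors, had 2 regions at 12.33 and 16.80 that covered 15.5% of its 46.4 kb. COL26A1, a collagen gene, also had 2, at 10.32 and 16.80, but these covered 3.29% of its 197 kb. FANK1, SBF2, KIF26B, SHANK2, ZNF433, ZNF664-RFLNA and LOC124900165 were the other genes with 2 that the naming rule selected. SHANK2, a postsynaptic scaffold gene, held 6 other short regions too, whereas KIF26B, a kinesin gene, held none.

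The largest covered share was in ACRBP, the acrosin-binding protein gene, where 1 region (chr12:6641895-6645643, density 12.04) covered 40.1%. ZNF433 had 29.5% and ZNF491 28.4%. DKKL1, expressed in the sperm acrosome, had 27.7%, and CACNG1, a calcium channel subunit gene of skeletal muscle, had 27.5%. Such shares depend on gene length, which was 9.36 to 21 kb in these 5 genes. Over short regions in genes by the length of the gene, the compact dense share was 11.4% up to 20 kb (9 of 79, 6.11 to 20.3%), 15.6% at 20 to 50 kb (35 of 225, 11.4 to 20.9%) and 9.04% above 500 kb (53 of 586, 6.98 to 11.6%). In between it was 12.5% at 50 to 100 kb, 10.1% at 100 to 200 kb and 9.08% at 200 to 500 kb (7.25 to 11.3%). From the shortest to the longest genes, the medians of genes within 500 kb were 24, 15, 10, 9, 6 and 2. From 20 to 50 kb upward the share thus fell at every step, as did the local gene count. Only the small class up to 20 kb departed from this order, and its interval is wide. Intervals of neighbouring classes overlap, as do those of 20 to 50 kb and above 500 kb. Those of 20 to 50 kb and 200 to 500 kb do not, but only narrowly (limits of 11.4 and 11.3%).

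C2H2 zinc finger genes, the class whose 3′ parts commonly carry H3K9me3, overlapped 17 of the 817 (2.08%, 1.3 to 3.31%) and 124 of the others (1.74%, 1.46 to 2.08%). Of the 141 short regions in these genes, 12.1% were compact and dense (7.67 to 18.5%), beside 10.3% of all short regions. The median number of protein-coding genes around the 141 was 19. The 17 regions lay in 16 genes. ZNF433 held 2 (10.70 and 11.31), and ZNF491, ZNF773, ZNF443 and ZNF473 held 1 each that covered 28.4, 20.9, 20.5 and 19% of the gene. ZNF773, with a density of 13.86, and ZNF473, with 14.57, had the highest densities of these 5 genes. ZNF322, ZSCAN2, ZNF813, ZNF266 and ZNF846 followed, with 15.7 to 9.98% covered.

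Within zinc finger genes of known strand the regions leaned to the 3′ end in both classes. Of 15 compact dense regions 7 lay in the last of 4 equal parts of the gene (46.7%, 24.8 to 69.9%), and of 97 others 45 did (46.4%, 36.8 to 56.3%). The median position was 74.3% and 72.3% of the way along the gene. The other protein-coding genes include zinc finger genes with other symbols. In them the compact dense regions were spread more evenly, with 26.7, 20.5, 24.6 and 28.2% from the first to the last part (n = 195), and a median position of 53.6%. The other short regions there had 23.9, 30.1, 25.3 and 20.8% (n = 1710) and a median of 46.1%.

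**Figure D5:**
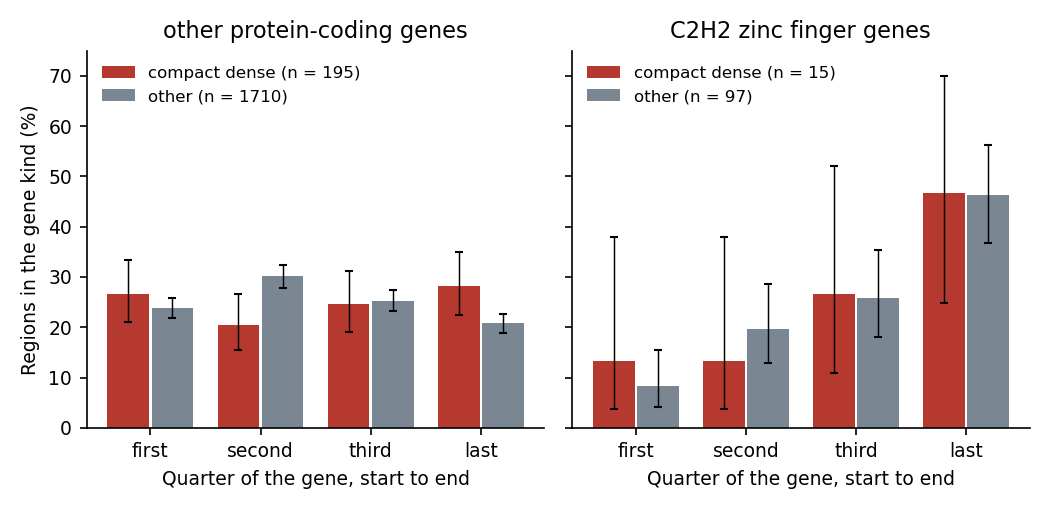
Share of regions (%) whose midpoint lies in each of 4 equal parts of its host gene, from start to end, for other protein-coding genes (left) and C2H2 zinc finger genes (right), for compact dense (red) and other short regions (grey); bars start at 0 and lines are 95% Wilson intervals over regions. In zinc finger genes the last part holds 46.7% and 46.4%, and in other genes the shares lie between 20.5% and 30.1%.

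Large neuronal adhesion and synapse genes, a list of 42 made by hand, were the other list with enough short regions to give a share. Genes outside the list, such as SHANK2, were not counted. Of 98 short regions in them 6 were compact and dense (6.12%, 2.84 to 12.7%), and the median gene count around the 98 was 1. Weighted to that gene count, all short regions gave 7.18%, so the difference went from -4.18 percentage points against all short regions to -1.06 against the weighted ones. The 6 lay in MAGI2 (15.14 and 11.55), DLGAP1, GPC6, OPCML and NRXN3, which encode scaffold proteins of the synapse, a glypican, an IgLON adhesion protein and a neurexin. Each gene was covered by less than 1% (0.567% in MAGI2, 0.161% in NRXN3).

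The remaining lists, made by hand or by symbol, held few short regions. Genes of the H3K9 methylation machinery held 9, of which 1 was compact and dense, in ATF7IP2 (chr16:10406715-10411383, density 10.14), a paralogue of the SETDB1 partner ATF7IP. The 39 listed meiotic and germline genes held 5, of which 1 was compact and dense, in DMC1, the meiotic recombinase gene (chr22:38541704-38545249, 10.17). Compact dense regions also lay in genes outside this list, such as HSF2BP (density 17.48) and MEIKIN (10.37). MEIKIN also held 2 other short regions, and no share was taken over such genes. Olfactory receptor and keratin-associated protein genes held 4 short regions each, fibroblast genes 3, and the clustered protocadherin and hepatocyte lists 1 each, and none of these was compact and dense. At such numbers a share near 10.3% was not detectable. Ribosomal protein, replication-dependent histone and pluripotency genes held no short region of either class.

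Gene starts were rare in both classes. A protein-coding start lay in 0 of the 817, which allows a share of up to 0.367%, and in 10 of the 7111 (0.141%). Within 1 kb of such a start lay 3 (0.367%) and 31 (0.436%). The table of starts covered 15101 of the 19126 autosomal protein-coding genes, so starts of the others were not counted. Either end of a protein-coding gene body, known for all of them, lay in 12 of the 817 (1.47%, 0.842 to 2.55%) and in 75 of the others (1.05%, 0.842 to 1.32%). In all 12 compact dense regions it was the 3′ end of a gene of known strand, so none held a start. Small nucleolar RNA genes, of which many sit in introns, were in 0 and 16 regions (up to 0.367% and 0.225%).

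Distances were also taken from the gene targeted by the siRNA and from the factor profiled in the other libraries. The nearest compact dense region to ERH (chr14:69380128-69398299) was 1751 kb away at chr14:71149569-71153306, and the nearest region of any class 343 kb away. For SOX2 (chr3:181711925-181714436) these distances were 1728 kb and 200.2 kb. Chromosome 14 held 0.168 compact dense regions per Mb and chromosome 3 held 0.277, so distances of this size are not remarkable there.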

How the data were processed

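CUT&RUN for H3K9me3 was done in 3 siControl and 3 siERH samples, per the labels' protocols. The submitters' processing notes name hg38, Bowtie2 2.3.4.1, SAMtools 1.16.1, deepTools 3.5.0, bedtools 2.27.1, SEACR 1.3 and R 3.6.3, with no role or order. The only file used is a merged list of regions without a header, deposited by the authors with 1 whole-number score per region. The score's unit, the peak threshold and any control library are not given in the sources used here. Replicates were pooled in the list, so no test, replicate error or removal of a replicate was possible, and the sequencing depth is unknown. Such a score, if summed over a region, grows with length, and a minimum score raises the density of the shortest regions.

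Density was score divided by end minus start. Regions with a piece number above 1 (17) and regions off chromosomes 1 to 22 were left out of both classes. First pieces were kept: 6 regions of the whole list share their score with a later piece, and none of them is compact and dense. The nearest region of any length was sought in the whole list, later pieces included. Coordinates are 1-based. Gene positions (RefSeq, GRCh38.p14), promoter windows and microRNAs were of the same RefSeq build, and an overlap needed at least 1 bp. Position along a gene was taken for regions in exactly 1 protein-coding gene of known strand. Wilson 95% intervals and 3-count limits cover counting only, and regions of a list are not independent. The members and gene lists were chosen with earlier results of these data known. Gene lists were made by hand or by symbol and are not complete classes. Named were ERH and SOX2; the 5 highest scores, 5 highest and lowest densities, 3 shortest and longest regions and those nearest the limits, of which a part is printed; up to 10 genes with the most members, the 5 most covered of at least 5 kb, and up to 10 per list. Alternatives were other density and length limits, chromosomes left out, weighting by length or gene count, and other windows. The measure of genes within 500 kb and all its alternatives, the weighting by gene count, the neuronal list's own share and the density classes were added after seeing the data. The counting code was checked on simulated regions, with 0 wrong of 4200 checks. Python 3.11.15, numpy 2.4.6, pandas 2.3.3, scipy 1.17.1 and matplotlib 3.10.9 were used.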

Additional observations from a re-analysis of the deposited data

Results flagged for a closer look

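Regions off the autosomes were outside the comparisons, and some of them met the same limits of length and density. On chromosome X, 3 of 48 unsplit regions below 5000 bp did (6.25%, 95% Wilson interval 2.15 to 16.8%), with densities from 10.13 to 11.76. On unplaced, unlocalised and alternate contigs, 3 of 15 did (20.0%, 7.05 to 45.2%), with densities from 10.75 to 13.05. Both intervals include the autosomal share of 10.3%. These values drew attention only because they lie in data that no comparison used and are above the share that 0 regions would give.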

How the results depend on the processing

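No paired analysis was possible because the replicates were merged into 1 list, and no replicate could be left out. Of 81 values under alternatives, for 11 results, 71 stayed within the counting interval of the reported value and 10 moved outside it. Of the 71, 4 had the other sign, all for differences near 0: the gene body share without chromosome 19 (-0.262), the annotated gene share below 3000 bp (-0.654) and weighted to like gene counts (-2.46), and the gene-free stretch share of regions at least 10 kb from any other (-0.516). Differences are in percentage points, compact dense minus other short regions. Weighted to like gene counts, the gene body difference of 0.371 became -4.34. The difference near gene-free stretches, 1.06, became 6.94 at a density of 12 to 20 and -0.791 at 9 to 20. The share with a compact dense nearest neighbour, 4.47 higher, was 1.40 higher among regions below 3000 bp and 7.54 higher with neighbours within 50 kb. The median distance to the nearest region, a difference of -6.46 kb, became -15.2 kb at 12 to 20 and -31.0 kb to neighbours with at least the median score. The gene-rich minus gene-poor difference, 9.94, became 3.63 at 12 to 20 (5.54 against 1.91%), 15.8 at 9 to 20 (27.1 against 11.3%) and 6.88 below 3000 bp; the first 2 alternatives change how many regions are counted, and the cause was not tested for the others. Depth is unknown, so no limit of detection can be given.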

Other observations

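Some rows of the list depart from its general layout. Scores of 17 rows with a piece number above 1 repeat those of 6 first pieces, and none of the 6 is a compact dense region. In file order 15 rows interrupt another chromosome's block, 0 of them compact and dense, and 70 rows start before the row above them on the same chromosome, 3 of them compact and dense. Across all 7928 short autosomal regions, density went with the number of protein-coding genes within 500 kb at a Spearman rho of 0.26, with the density of the nearest short region at 0.26 and with length at -0.16. These are descriptions over regions that share 1 list and 1 scale of scores.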
